A study of Mus musculus with 20 samples.

Results

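The 10 genes described here, Pdgfra, Dcn, Lum, Dpt, Gsn, Mfap5, Pi16, Cd34, Dpp4 and Ly6a, are markers of muscle fibroblasts and fibro-adipogenic progenitors (FAPs). They were taken as FAP markers other than collagens and matched by symbol to the Ensembl identifiers of the count matrix, which listed 55401 genes. All 10 were found, and all 10 were among the 12923 genes with enough counts to be tested. The rule uses no measured value, although earlier results of these data were known when it was set.

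RNA came from the gastrocnemius, a calf muscle, of 20 C57BL/6 mice aged 24 months. One group of 10 mice received HK (Haenkenium, a hydroethanolic extract of the aerial parts of the plant Salvia haenkei), dissolved in their drinking water to give 0.5 mg/kg/day, from 20 months of age for 4 months. The other group of 10, untreated, had plain drinking water. Each group held 5 males and 5 females, and all mice shared age and muscle. The libraries were sequenced in 2 experiments, here batch 1 (4 mice of each group) and batch 2 (6 of each group), with both sexes of both groups in each. Total RNA of the muscle was depleted of rRNA. The counts cover all cells of the muscle together. A lower level of a FAP gene through fewer cells therefore cannot be told apart from less RNA per cell. Per the study's methods, mice were either bought at an advanced age or bred in house, and the labels do not tie a mouse to a source.

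FAPs are mesenchymal cells that lie between muscle fibres and are recognised by the PDGF receptor Pdgfra on their surface. They make extracellular matrix, provide factors for muscle stem cells during repair, and can give rise to fibroblasts and adipocytes when muscle is damaged or ages. A subset that expresses Pi16 and Dpp4 sits in the connective tissue around vessels and is regarded as a reservoir of fibroblasts.

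In genome order of the mouse build GRCm38, Dpt lies at chr1:164796644-164824266 and Cd34 at chr1:194938819-194961279, both on the plus strand. Gsn (chr2:35256380-35307892, plus) and Dpp4 (chr2:62330073-62412231, minus) share chromosome 2. Pdgfra is at chr5:75152292-75198215 (plus) and Mfap5 at chr6:122505845-122529290 (plus). Dcn (chr10:97479609-97518143, plus) and Lum (chr10:97565128-97572703, plus) are neighbours in a cluster of small proteoglycan genes. Ly6a is at chr15:74994877-74998031 (minus) and Pi16 at chr17:29317680-29330593 (plus). Antisense genes overlap Pdgfra, Dpt, Pi16, Cd34 and Dpp4, and Ly6a belongs to a family of similar genes. The sources used here give neither the strand setting of the counting nor its treatment of reads matching several genes, and the counts of these 6 genes carry that uncertainty.

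RefSeq promoter windows on GRCm38.p6, from 250 bases before to 50 after a start, were at hand for 6 of the 10 genes (Pdgfra, Dpt, Gsn, Pi16, Cd34 and Dpp4) and not for Dcn, Lum, Mfap5 and Ly6a. They were read because the genes varied together from mouse to mouse, and 4 are printed: those of Dpt and Pi16, which were among the closest pairs, of Gsn, the most abundant, and of Pdgfra, the defining receptor. Capitals mark matches, on either strand, to the TATA box core TATAAA, the GC box GGGCGG, the CCAAT box, the AP-1 motif TGANTCA and the TEAD motif GGAATG, of which none overlapped another. The windows are Dpt chr1:164796413-164796712, Pi16 chr17:29318632-29318931, Gsn chr2:35256109-35256408 (the first of 3 windows of this gene) and Pdgfra chr5:75152001-75152300, all on the plus strand. The Pi16 window lies inside the gene as the annotation used for its position draws it, since RefSeq places the start further along.
Dpt: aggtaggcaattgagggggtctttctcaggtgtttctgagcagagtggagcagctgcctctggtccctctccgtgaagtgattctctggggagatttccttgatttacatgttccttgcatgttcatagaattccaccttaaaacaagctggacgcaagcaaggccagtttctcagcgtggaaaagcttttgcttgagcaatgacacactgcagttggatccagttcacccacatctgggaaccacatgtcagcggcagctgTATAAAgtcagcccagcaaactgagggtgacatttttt
Pi16: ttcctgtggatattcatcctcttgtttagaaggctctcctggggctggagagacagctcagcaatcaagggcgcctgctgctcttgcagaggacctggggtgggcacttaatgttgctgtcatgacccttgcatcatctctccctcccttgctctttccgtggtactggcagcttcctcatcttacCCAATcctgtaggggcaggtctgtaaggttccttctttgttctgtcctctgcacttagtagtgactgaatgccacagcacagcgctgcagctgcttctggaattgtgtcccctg
Gsn: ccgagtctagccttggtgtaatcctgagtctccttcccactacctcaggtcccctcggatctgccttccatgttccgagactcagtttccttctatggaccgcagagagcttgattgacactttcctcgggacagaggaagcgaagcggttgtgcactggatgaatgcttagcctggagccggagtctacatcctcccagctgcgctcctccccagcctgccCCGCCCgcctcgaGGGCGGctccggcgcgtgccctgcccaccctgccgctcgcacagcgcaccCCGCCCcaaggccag
Pdgfra: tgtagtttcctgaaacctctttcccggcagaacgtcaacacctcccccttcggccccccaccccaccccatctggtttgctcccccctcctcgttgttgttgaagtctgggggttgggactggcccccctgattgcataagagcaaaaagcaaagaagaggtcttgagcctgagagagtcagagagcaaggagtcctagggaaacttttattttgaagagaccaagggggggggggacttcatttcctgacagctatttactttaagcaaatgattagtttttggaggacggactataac
The windows had little in common in these letters. TATAAA, found in 13.6% of all 32851 windows of the same length, was present in Dpt and Dpp4. GGGCGG, in 35.7% of all windows, was present in all 3 windows of Gsn (3 matches in the one printed) and in none of the other 5 genes. CCAAT, in 37.4%, was present in Pi16 and in 2 of the Gsn windows, and GGAATG, in 14.7%, in Dpp4. TGANTCA, in 7.81%, had no match in any of the 8 windows. The printed Gsn window held 63.7% G and C with 20 CpG, and those of Dpt (48.7%, 4 CpG), Pi16 (53.3%, 3 CpG) and Pdgfra (51%, 5 CpG) held fewer, against medians of 52.7% and 7 CpG over all windows. A match is a description of the letters and not a bound site.

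The defining receptor Pdgfra was counted in every mouse (93 to 497 reads, median 326), and no FAP gene was at 0 in any mouse. Total counts per mouse lay between 13900180 and 30469644, and the 10 genes together took 0.032% to 0.156% of them, against 18.1% to 22.7% for a list of 10 muscle fibre genes. Levels are given as CPM (a gene's count over the library's TMM-scaled total, on the usual CPM scale). The least counted gene was Dpp4, the membrane peptidase CD26 of the reservoir fibroblasts, with 16 to 97 reads, where counting alone gives an error of 25% at the lowest value. Gsn had 3211 to 13870 reads, with a counting error of 1.13% at the median. These errors cover counting only.

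Per length of exon, the FAP genes covered a wide range of levels. Gsn, which encodes the actin-severing protein gelsolin and is also made by other cells of muscle, led with a median of 134 CPM per kb of exon (43.6 to 284). Dcn, encoding the proteoglycan decorin, which binds collagen fibrils, followed at 38.8 CPM per kb (16.2 to 72.7). Ly6a, encoding the surface protein Sca-1 carried by FAPs and by endothelial cells, stood at 25.5 (9.16 to 46.3) and Dpt, encoding the matrix protein dermatopontin, at 16.4 (3.77 to 35.3). Lum, encoding lumican, which like decorin regulates fibril assembly, had a median of 7.58 CPM per kb, and Cd34, a sialomucin of progenitor and endothelial surfaces, 4.67. Pi16, a secreted peptidase inhibitor, had 3.03, Mfap5, a microfibril protein bound to elastic fibres, 2.82, Pdgfra 1.85 and Dpp4 0.512. Most neighbours in this order kept it within each mouse, in 20 of 20 mice for 6 of the 9 steps and in 18 of 20 for Dcn over Ly6a and for Ly6a over Dpt. Pi16 and Mfap5 could not be ranked, since Pi16 was the higher in 11 of 20 mice.

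**Figure D1:**
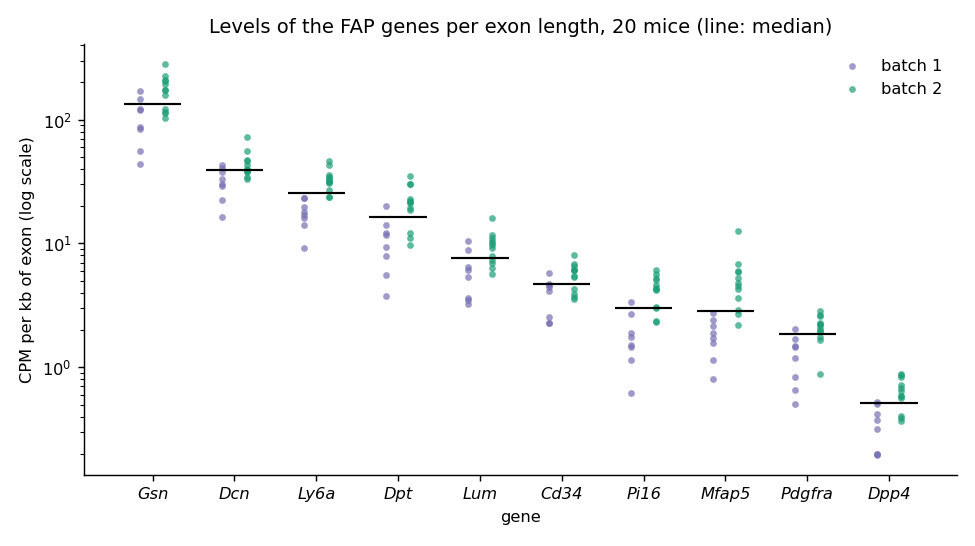
Levels of the 10 FAP genes in 20 mice as CPM per kb of exon on a log axis, with 1 point per mouse coloured by batch and a line at the median. Medians run from 134 for Gsn to 0.512 for Dpp4, and each gene's points of batch 1 and batch 2 overlap except for Ly6a.

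The question the series was made for is whether HK changes the ageing muscle, and the FAP genes showed no difference between HK-treated and untreated mice that passed the test. All 10 had a log2 fold change below 0 (median -0.22), while 49% of all genes tested did and the median over all genes was 0.0024. None was called (quasi-likelihood test in edgeR, in a model that also held sex and batch, Benjamini-Hochberg adjusted p from 0.799 to 0.963). No gene of the 12923 was called (0%), with 355 higher and 431 lower at an unadjusted p under 0.05 and a lowest adjusted p of 0.292. The 10 genes rose and fell together across mice, as described below, so their 10 signs are not separate observations.

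Among the surface markers, Cd34 had the difference with the lowest p. It was at 16.5 CPM in the lowest, 30.5 in the median and 44.7 in the highest HK-treated mouse, and at 18.6, 41.0 and 58.3 CPM in untreated mice. The ranges overlapped over most of their length, although 8 of 10 HK-treated mice were lower than the median untreated mouse. Against the untreated median of the same batch, 2 of 4 were lower in batch 1 and 6 of 6 in batch 2. The log2 fold change was -0.35 ± 0.17 (SE), with an unadjusted p of 0.047 and an adjusted p of 0.799 in edgeR. Cd34 was the 1 FAP gene of 10 lower at an unadjusted p under 0.05, where 3.34% of all genes were. The fold change was -0.31 in batch 1 alone and -0.36 in batch 2 alone.

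Pdgfra ran from 5.08 through a median of 16.8 to 28.5 CPM in HK-treated mice and from 8.39 through 20.1 to 26.3 CPM in untreated mice. HK-treated mice held both the lowest and the highest value of all 20, and their SD of 7.86 CPM stood beside 5.40 CPM in untreated mice. The log2 fold change was -0.22 ± 0.22 (SE, adjusted p = 0.866).

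Ly6a was at 11.03, 28.6 and 43.3 CPM (lowest, median and highest) in HK-treated and at 16.9, 34.8 and 55.8 CPM in the untreated (log2 fold change -0.11 ± 0.14, SE, adjusted p = 0.905). Its sign was not stable between batches, with 0.0088 in batch 1 alone and -0.18 in batch 2 alone. Dpp4 was at 1.25, 2.86 and 5.49 CPM in HK-treated and at 1.23, 3.43 and 5.57 CPM in untreated mice (-0.13 ± 0.21, SE, adjusted p = 0.928). The groups covered nearly the same range for Dpp4, whereas the lowest and the highest Ly6a value were both lower in HK-treated mice.

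Of the secreted and matrix genes, Mfap5 had the largest fold change of the 10. Its CPM was 2.89, 9.14 and 21.4 in HK-treated mice and 4.08, 13.7 and 44.9 in untreated mice. The highest value belonged to untreated male replicate 3, with 24.6 CPM in the next untreated mouse, and the other 9 untreated mice overlapped with the HK-treated mice almost entirely. The log2 fold change was -0.49 ± 0.24 (SE, p = 0.0607 unadjusted, adjusted p = 0.799) and -0.30 ± 0.22 (SE, adjusted p = 0.997) without that mouse. It was -0.11 in batch 1 alone and -0.64 in batch 2 alone, a difference between batches that did not pass the test (interaction -0.53 ± 0.50, SE, adjusted p = 0.9997).

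Pi16 was at 3.93, 18.2 and 32.1 CPM in HK-treated and at 7.31, 24.2 and 38.7 CPM in untreated mice, with a log2 fold change of -0.36 ± 0.22 (SE, adjusted p = 0.817). Dpt was at 6.50, 22.7 and 60.9 CPM against 13.5, 33.8 and 51.9 CPM (-0.28 ± 0.26, SE, adjusted p = 0.859). In both genes 7 of 10 HK-treated mice were lower than the median untreated mouse, and for Dpt the highest mouse of all was HK-treated.

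Lum was at 7.87, 17.5 and 28.6 CPM in HK-treated and 8.85, 20.8 and 39.0 CPM in untreated mice (log2 fold change -0.21 ± 0.21, SE, adjusted p = 0.874). Dcn was at 94.6, 227 and 424 CPM against 169, 228 and 328 CPM (-0.07 ± 0.15, SE, adjusted p = 0.951), and Gsn at 138, 424 and 895 CPM against 267, 439 and 707 CPM (-0.08 ± 0.23, SE, adjusted p = 0.963). The fold changes of Dcn and Gsn were the nearest to 0 of the 10, their medians were nearly equal in the groups, and HK-treated mice spread more widely at both ends. In batch 2 alone and in males alone the fold change of both was above 0 (Dcn 0.08 and 0.10, Gsn 0.10 and 0.21).

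**Figure D2:**
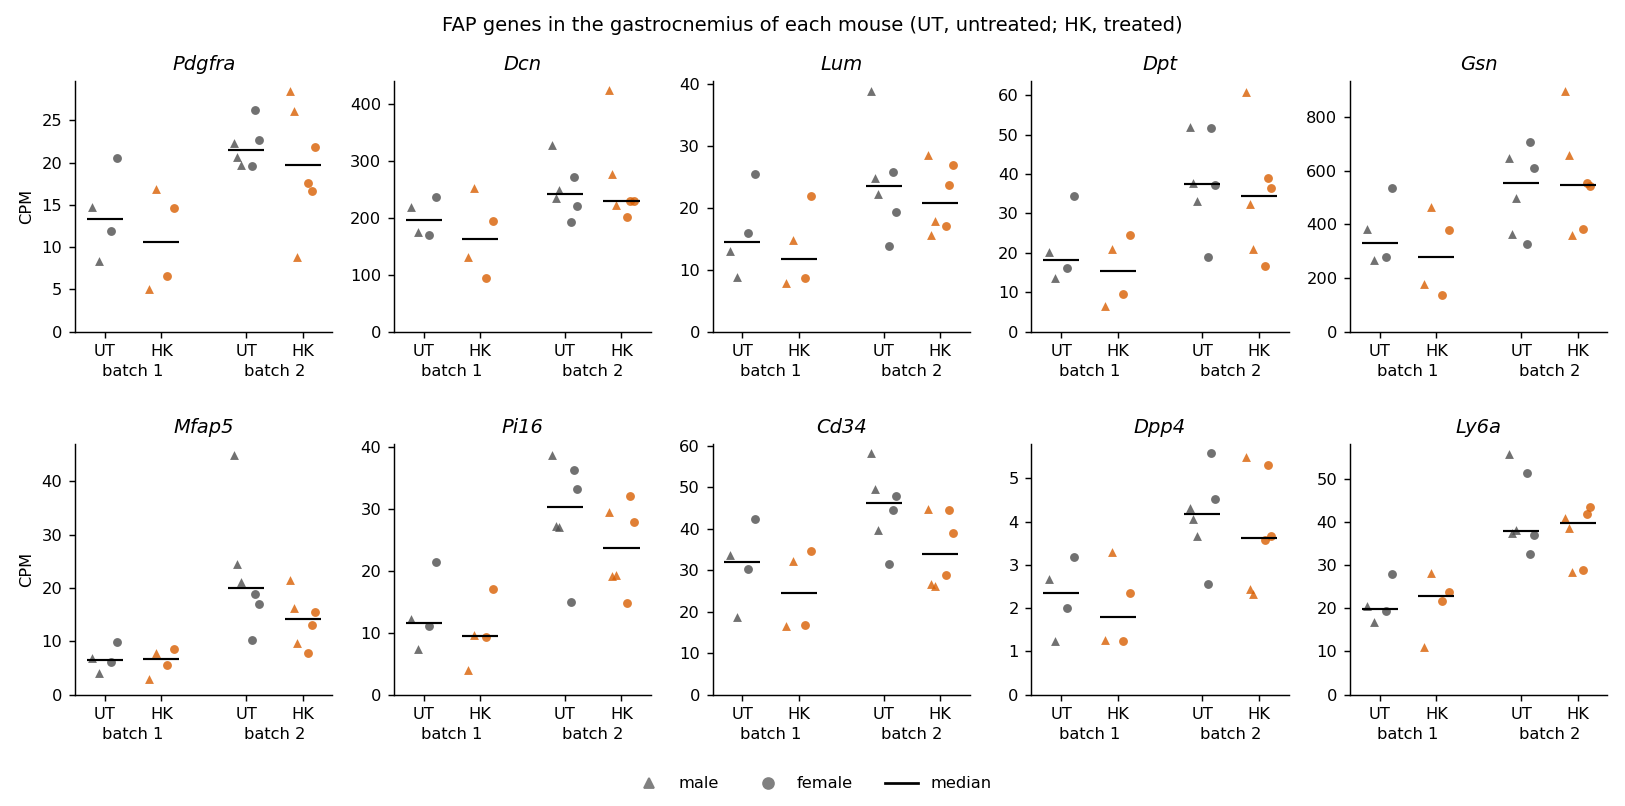
CPM of each FAP gene in each mouse, by batch and treatment (UT, untreated), with triangles for males, circles for females and a line at the median of the 4 or 6 mice. Untreated and HK-treated mice overlap in every panel. The mice of batch 2 tend to lie higher, and the batches overlap in every panel except that of Ly6a.

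The response to HK was also compared between sexes and between batches. No FAP gene passed the test of either interaction (edgeR, adjusted p = 0.9998 for each gene with sex and 0.9997 with batch), nor did any gene of the 12923 (0% for sex and 0% for batch, with 209 higher and 228 lower for sex and 187 higher and 184 lower for batch at an unadjusted p under 0.05). The difference was below 0 for 5 of 10 FAP genes with sex and 3 of 10 with batch. The largest of the FAP interactions was that of Gsn with sex, 0.57 ± 0.45 (SE) on the log2 scale, from -0.36 in females alone and 0.21 in males alone.

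HK male replicate 1, a mouse of batch 1, was the lowest of all 20 mice in 7 of the 10 FAP genes (Pdgfra, Lum, Dpt, Mfap5, Pi16, Cd34 and Ly6a). HK female replicate 1 was lowest in Dcn and Gsn. Untreated male replicate 3 was highest in 5 genes and HK male replicate 3 in 4, both of batch 2. Without HK male replicate 1 the median log2 fold change of the 10 genes with HK was -0.14 and 9 of them were below 0. It was -0.14 with 8 below 0 without HK female replicate 1 and -0.11 with 8 below 0 without untreated female replicate 2, with none called in any of these. Of the single genes, Lum was at -0.09 without untreated male replicate 3, Pdgfra at -0.13 and Dpt at -0.14 without untreated female replicate 2, Dpp4 at -0.05 without HK female replicate 1 and Ly6a at -0.04 without HK male replicate 1. In the other direction, Dpp4 was at -0.26 and Ly6a at -0.20 without HK male replicate 2, Dpt at -0.44 without HK male replicate 3 and Lum at -0.32 without HK female replicate 2.

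Related genes that were not used to choose the FAP genes were read from lists, where 49% of all genes tested were below 0 with HK. Most lists of this and the next paragraph varied with the FAP genes across the same mice, as described below. Their signs are therefore not separate observations. Of the 8 other small leucine-rich proteoglycans tested, relatives of Dcn and Lum, 7 were below 0 with HK (median log2 fold change -0.30), and Aspn, encoding asporin, had the lowest p (-0.70 ± 0.25, SE, unadjusted p = 0.0097, adjusted p = 0.799). Of 15 elastic fibre and microfibril genes, relatives of Mfap5, 14 were below 0 (median -0.30), with the lowest p for Mfap4 (-0.85 ± 0.37, SE, adjusted p = 0.799). Of 11 further markers of the adventitial Pi16 and Dpp4 subset 8 were below 0 (median -0.18, lowest p for the surface protein gene Cd248, -0.57 ± 0.27, SE, adjusted p = 0.799). Of 11 markers of FAPs between the fibres 9 were below 0 (median -0.05, lowest p for the matrix gene Hmcn2, -0.29 ± 0.17, SE, adjusted p = 0.811). No gene of these 4 lists was called.

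The PDGF ligand genes (Pdgfa, Pdgfb, Pdgfc and Pdgfd) and the sister receptor Pdgfrb had a median of -0.24, with the lowest p for Pdgfrb, also a marker of pericytes (-0.45 ± 0.17, SE, unadjusted p = 0.018, adjusted p = 0.799). Of 9 factors secreted or used by FAPs 7 were below 0 (median -0.13, lowest p for Fstl1, -0.47 ± 0.22, SE, adjusted p = 0.799). Of 11 activated fibroblast genes, such as those of scar and repair matrix, 9 were below 0 and 2 above (median -0.35). The lowest p among them was that of Postn (-1.72 ± 0.55, SE, unadjusted p = 0.005, adjusted p = 0.799). The 9 fibroblast collagens were all below 0 (median -0.48, lowest p for Col5a2, -0.59 ± 0.30, SE, adjusted p = 0.799).

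Lists of other cell types lay on either side of 0 with HK, where 49% of all genes tested were below 0. All 10 endothelial genes (median -0.20) and all 9 macrophage genes (-0.29) were below 0, as were 7 of 8 mural cell genes (-0.20), while the 6 Schwann cell genes were all above 0 (0.36). Medians were 0.0072 for 8 adipocyte genes, 0.034 for 4 tenocyte genes, -0.14 for 5 satellite cell genes and 0.075 for 10 muscle fibre genes. None of these genes was called, no macrophage or endothelial gene was at 0 in a whole group, and the part of these cells in the FAP values was not tested. The summed CPM of the macrophage genes was 16.4 to 166 in HK-treated and 21.9 to 205 in untreated mice, and of the endothelial genes 130 to 379 and 197 to 387. None of the 9 lymphocyte genes had enough counts for a test, with a sum of 0.361 to 11.9 CPM.

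**Figure D3:**
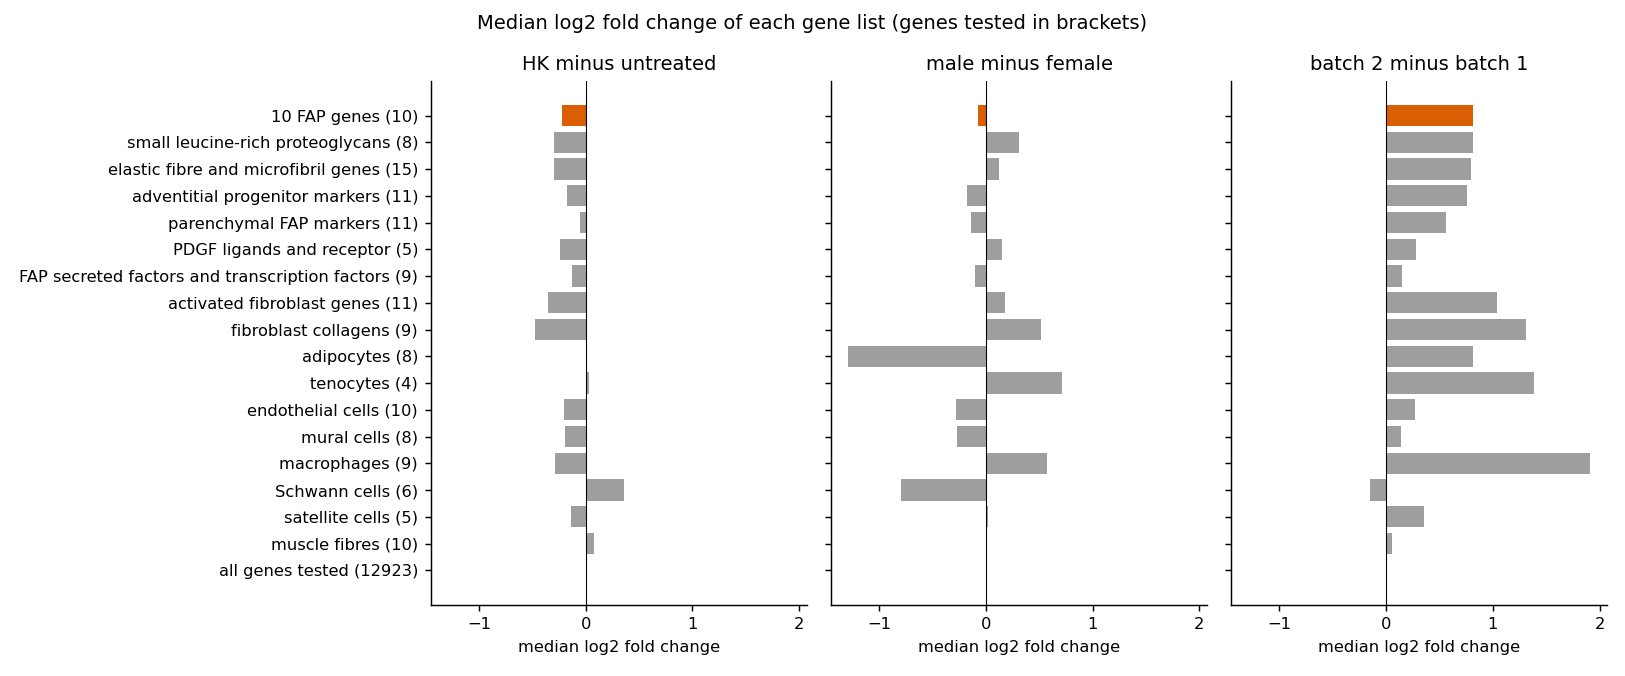
Median log2 fold change of the 10 FAP genes (orange) and of each other gene list (grey) for HK minus untreated, male minus female and batch 2 minus batch 1, with the number of genes tested in brackets. The FAP bar is -0.22, -0.07 and 0.82, and the median of all genes tested is near 0 in each panel.

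Males and females did not differ in any FAP gene at an adjusted p under 0.05, whereas 16.8% of all genes did. Of the 2174 genes called, 1230 were higher in males and 944 higher in females. When counts were scaled by library size alone, 2298 genes were called, 792 higher in males and 1506 higher in females. The lowest p of a FAP gene was that of Dcn, at 130, 242 and 424 CPM in males and 94.6, 211 and 273 CPM in females, a log2 fold change (male minus female) of 0.29 ± 0.15 (SE, edgeR, unadjusted p = 0.073, adjusted p = 0.209). The male range contained most of the female range. Pi16 lay on the other side of 0, at 3.93, 19.3 and 38.7 CPM in males and 9.31, 19.3 and 36.3 CPM in females (-0.31 ± 0.22, SE, adjusted p = 0.355), and its medians agreed to 3 digits. Its fold change was -0.83 ± 0.32 (SE) in batch 1 alone and -0.0089 ± 0.23 (SE) in batch 2 alone. Mfap5 was 0.28 ± 0.25 (SE, adjusted p = 0.477), with 2.89, 12.9 and 44.9 CPM in males and 5.598, 10.1 and 18.8 CPM in females. For Mfap5 it was -0.47 ± 0.31 (SE) in batch 1 alone and 0.67 ± 0.26 (SE) in batch 2 alone. Neither gene was called in a single batch. The other 7 genes lay between -0.13 (Lum) and 0.07 (Gsn), with adjusted p from 0.728 to 0.98.

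Some other genes of the same tissue niche differed between sexes, where 16.8% of all genes tested were called. Called were 3 of 15 elastic fibre genes, 2 of 11 adventitial markers and 2 of 11 markers of FAPs between fibres. So were 1 of 5 PDGF genes, 1 higher and 1 lower of 9 secreted and transcription factors, and 1 of 11 activated fibroblast genes. These counts lie near the share of all genes and are not a result about the niche. Of the 8 adipocyte genes, the fate that FAPs can take, 6 were lower in males and none higher (median -1.29, lowest p for Retn, encoding resistin, -1.85, adjusted p = 0.0017). Of the FAP markers outside the 10, Penk, encoding proenkephalin, was higher in males (1.27, adjusted p = 4.38e-05) and Limch1 lower (-0.26, adjusted p = 0.00053). Il15, a cytokine with effects on muscle, was lower in males (-0.93, adjusted p = 2.46e-05), whereas Igf1, a growth factor for muscle, was higher (1.23, adjusted p = 0.00015). Pdgfa, a ligand of Pdgfra, was higher in males (0.48, adjusted p = 0.0036). The other FAP markers called were Hsd11b1, higher in males by 0.76 (adjusted p = 0.012), and Sema3c, lower (-0.27, adjusted p = 0.011). Lox, the collagen and elastin cross-linking enzyme, was higher in males by 0.98 (adjusted p = 0.013), as were Efemp2 (0.57) and Ltbp1 (0.39) of the same list, and of the collagens 1 of 9 was called, Col1a2 (1.03, adjusted p = 0.03). No SLRP (small leucine-rich proteoglycan) outside the 10 was called (0 of 8, lowest adjusted p 0.262 for Bgn). Of the other lists, 4 of 6 Schwann cell genes were lower in males, Cd68 of the macrophage genes was higher (1.51, adjusted p = 0.0097), and none of the endothelial or mural genes was called. Sparc of the activated fibroblast genes (0.53, adjusted p = 0.017) and Thbs4 of the tenocyte genes (1.49, adjusted p = 8.31e-06) were higher in males. Of the 10 muscle fibre genes Myh2 was lower (-0.44, adjusted p = 0.0034) and Tnnt3 (0.22) and Ckm (0.22) were higher.

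**Figure D4:**
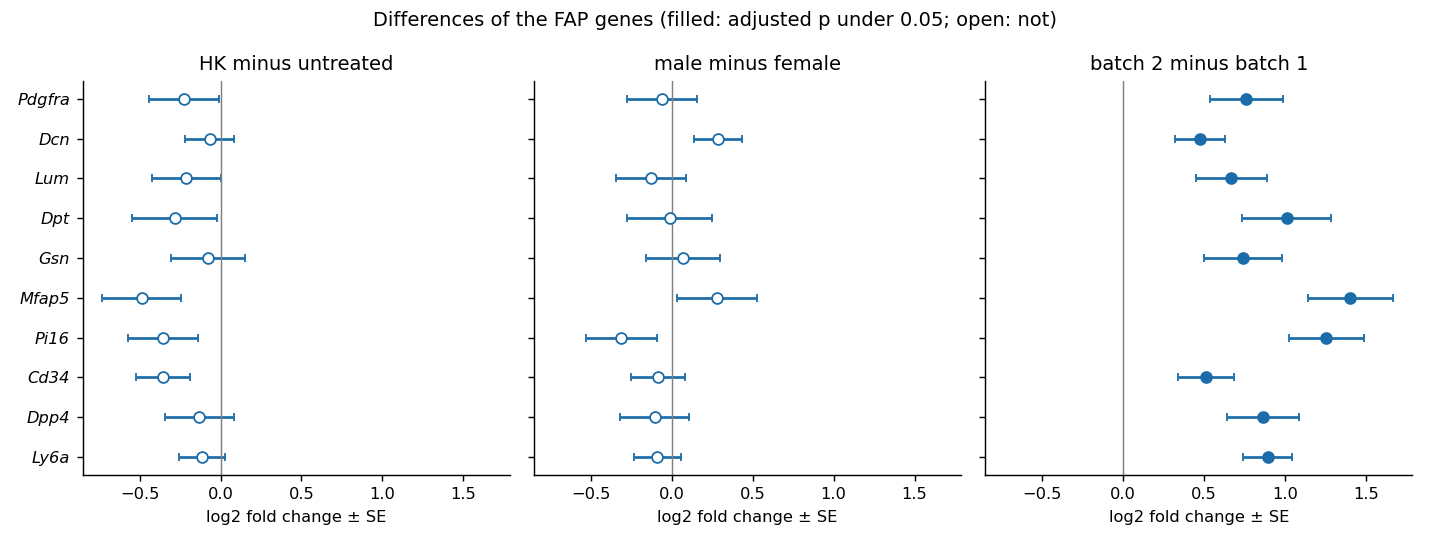
Log2 fold change ± SE of the 10 FAP genes for HK minus untreated, male minus female and batch 2 minus batch 1 from 1 edgeR fit over 20 mice, with filled points where the adjusted p was under 0.05. Filled points occur in the batch panel alone, where they run from 0.48 (Dcn) to 1.41 (Mfap5).

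The batch was the factor with which the FAP genes moved. All 10 were higher in batch 2 than in batch 1 and all 10 passed the test, where 19% of all genes were called higher in batch 2. Batch held 29% (Cd34) to 64.3% (Ly6a) of the variance of log2 CPM of the FAP genes, where the median gene had 14.9%, and treatment held 0.938% (Gsn) to 13.5% (Cd34), where the median gene had 2.12%. Each batch held different mice, so the sequencing experiment and the animals in it cannot be told apart. Both treatment groups and both sexes were present in each batch in equal numbers.

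Mfap5 differed most. It was at 2.89, 6.49 and 9.92 CPM (lowest, median and highest) in the 8 mice of batch 1 and at 7.83, 16.6 and 44.9 CPM in the 12 of batch 2. Of the 12, 10 exceeded the highest mouse of batch 1. The log2 fold change was 1.41 ± 0.26 (SE, edgeR, adjusted p = 0.0005). Pi16 was at 3.93, 10.3 and 21.5 CPM in batch 1 and at 14.9, 27.6 and 38.7 CPM in batch 2 (1.26 ± 0.23, SE, adjusted p = 0.00043).

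Ly6a was the 1 gene of the 10 whose batches did not overlap. It was at 11.03, 21.1 and 28.2 CPM in batch 1 and at 28.3, 38.4 and 55.8 CPM in batch 2, so the gap between the highest and the lowest of the batches was narrow. Such a gap with every mouse of batch 2 higher occurred in 1.14% of all genes. The log2 fold change was 0.90 ± 0.15 (SE, adjusted p = 0.00022), the lowest adjusted p of the FAP genes.

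The other 7 genes overlapped between batches. Dpt was at 6.50, 18.2 and 34.4 CPM in batch 1 and 16.7, 36.8 and 60.9 CPM in batch 2 (log2 fold change 1.01 ± 0.28, SE, adjusted p = 0.0077). Dpp4 was at 1.23, 2.18 and 3.29 CPM against 2.32, 3.86 and 5.57 CPM (0.87 ± 0.22, SE, adjusted p = 0.005), and Pdgfra at 5.08, 13.3 and 20.5 CPM against 8.86, 21.2 and 28.5 CPM (0.76 ± 0.22, SE, adjusted p = 0.012). All 8 mice of batch 1 lay below the batch 2 median in these 3 genes.

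Gsn was at 138, 327 and 534 CPM in batch 1 and 326, 548 and 895 CPM in batch 2 (0.74 ± 0.24, SE, adjusted p = 0.02). Lum was at 7.87, 13.9 and 25.5 CPM against 13.9, 23.0 and 39.0 CPM (0.67 ± 0.22, SE, adjusted p = 0.023). Cd34, at 16.5, 31.2 and 42.3 CPM against 26.1, 42.1 and 58.3 CPM (0.51 ± 0.17, SE, adjusted p = 0.025), and Dcn, at 94.6, 185 and 252 CPM against 193, 233 and 424 CPM (0.48 ± 0.16, SE, adjusted p = 0.022), differed least.

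Some of these calls rested on single mice. Without HK male replicate 1, and likewise without untreated male replicate 2, 7 of 10 were called, and Dcn, Lum and Cd34 were not (highest adjusted p 0.0609). Without HK female replicate 1 it was 9 of 10, Cd34 being lost (adjusted p = 0.0533). All 10 fold changes were above 0 in untreated mice alone, HK-treated mice alone, males alone and females alone, where 4, 2, 5 and 3 were called. In the same order, 1066 of 13022, 624 of 12957, 1535 of 12829 and 712 of 13085 genes tested were called higher in batch 2.

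Genes related to the FAP genes differed between batches with them, where 19% of all genes were called higher in batch 2. Of the other SLRPs 6 of 8 were higher in batch 2 and none lower (median log2 fold change 0.82), with Bgn, encoding biglycan, a close relative of decorin, at 1.49 (adjusted p = 0.00047). Of the elastic fibre and microfibril genes 14 of 15 were higher (median 0.80), with Eln, encoding elastin, at 1.59 (adjusted p = 4.6e-05). Of the adventitial markers 7 of 11 were higher and 1 lower (median 0.76), the lower one being Sema3c at -0.22 (adjusted p = 0.022), and of the markers of FAPs between fibres 5 of 11 were higher (0.56). All 9 collagens (median 1.31) and 10 of 11 activated fibroblast genes (1.04) were higher, the latter with Ccn2 at 1.36 (adjusted p = 0.0003). The PDGF genes and the secreted factors moved less, both near the share of all genes. Higher were 1 of 5 PDGF genes (Pdgfb, 0.31, adjusted p = 0.049) and 2 of 9 factors (Fstl1, 1.10, and Il33, 0.70, adjusted p 0.0013 and 0.018).

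Markers of macrophages and of some other cell types also moved with the batch. Of all 12923 genes tested, 2451 were called higher in batch 2 and 2269 lower. All 9 macrophage genes were higher in batch 2 (median log2 fold change 1.91), and their summed CPM was 16.4 to 50.2 in batch 1 and 44.1 to 205 in batch 2. Of the endothelial genes 5 of 10 were higher (median 0.27, summed CPM 130 to 321 and 211 to 387), of the adipocyte genes 3 of 8 and of the tenocyte genes 3 of 4. Of the 8 mural cell genes 1 was higher and 1 lower, of the 6 Schwann cell genes none was called. Of the 5 satellite cell genes 1 was higher. The counts of these lists and of the muscle fibre list are near or below the shares of all genes. The muscle fibre list had 2 genes higher and 1 lower, a median of 0.059, and 19% to 21.8% of all counts in batch 1 against 18.1% to 22.7% in batch 2. No gene of the macrophage, endothelial, mural or adipocyte lists was at 0 in a whole batch. The part of these cell types in the FAP values was not tested.

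Beyond the batch, the FAP genes varied together from mouse to mouse. After the means of batch, sex and treatment were removed from log2 CPM, all 45 pairs of the 10 genes correlated positively across the 20 mice, with Pearson's r from 0.432 to 0.954 (median 0.76) and Spearman's rho from 0.444 to 0.964 (median 0.787). In 44 of 45 pairs both passed a two-sided permutation test within sex and batch (100000 resamples), with p adjusted over the 45 pairs up to 0.037 for r and 0.028 for rho. The exception was Dpp4 with Ly6a (r = 0.432, p = 0.12, rho = 0.444, p = 0.082, adjusted values the same). The smallest p the resamples allow, 1e-05, was reached for r in 8 pairs.

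The closest pair was Dcn and Gsn, with r = 0.954 and rho = 0.964 (permutation p = 1e-05 for each, the smallest possible, adjusted 5.62e-05 and 5e-05). Dpt and Pi16 had r = 0.929 and rho = 0.934 with the same p, and Lum and Cd34 r = 0.907 and rho = 0.896. Dcn and Lum, neighbours on chromosome 10, had r = 0.79 and rho = 0.782 (permutation p = 0.00014 and 0.00011, adjusted 0.00029 and 0.00025), lower than Dcn with Gsn on another chromosome. Dpt had the highest median r with the other 9 (0.867) and Ly6a the lowest (0.578), with 0.726 for Pdgfra.

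Leaving out, for each pair, the 2 mice farthest from the median of the first gene gave r from 0.446 to 0.94, so the relations did not rest on those mice. Within batch 1 (8 mice) the 45 values of r ran from 0.616 to 0.992 (median 0.871), and within batch 2 (12 mice) from 0.0456 to 0.91 (median 0.649), all above 0. The lowest in batch 2 was again Dpp4 with Ly6a, and Ly6a with Gsn was at 0.217 there. All values of a mouse come from 1 library, so they share its depth and its tissue composition.

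**Figure D5:**
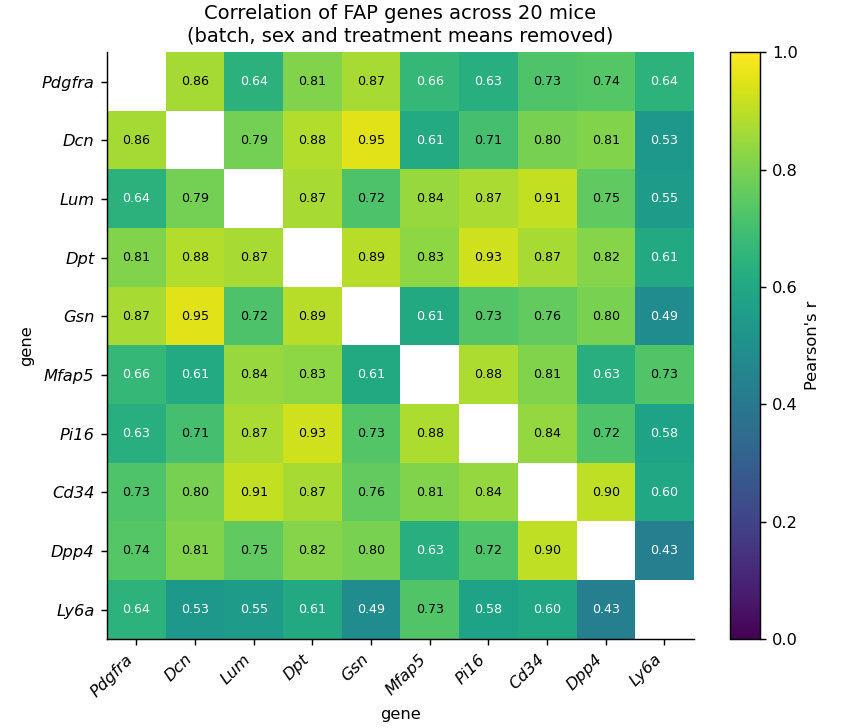
Pearson's r of each pair of FAP genes across 20 mice, from log2 CPM with the means of batch, sex and treatment removed, on a colour scale from 0 to 1. All 45 values are above 0, the highest is 0.95 for Dcn with Gsn, and the row of Ly6a is the darkest (lowest r), down to 0.43 with Dpp4.

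The genes most like the 10 were found by their median r with them over the 20 mice. The first 10 of 12913 other genes were Nid1 (0.882), a basement membrane linker, Fndc1 (0.872), Mmp2 (0.868), a gelatinase, Serpinf1 (0.866), Col6a1 (0.865), a collagen of the interstitial matrix, Abca9 (0.862), Rnase4 (0.859), Itih5 (0.858), Scara5 (0.858) and Pcsk6 (0.855). A median r above 0.8 was found for 51 of the other genes, and the median over all of them was -0.0226. All 10 had a log2 fold change with HK below 0, from -0.46 (Col6a1) to -0.12 (Itih5), where 49% of all genes did. None was called (adjusted p from 0.801 to 0.948). These genes were picked in the same mice for varying with the FAP genes, so their signs are not separate observations. With the batch, 8 of the 10 were higher in batch 2, and Abca9 (0.42, adjusted p = 0.105) and Itih5 (0.51, adjusted p = 0.126) did not pass the test.

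The lists differed in their likeness to the FAP genes. Median r with the 10 was 0.777 for the 9 collagens, 0.736 for the other SLRPs, 0.713 for elastic fibre genes, 0.715 for the markers of FAPs between fibres and 0.689 for the adventitial markers. It was 0.616 for macrophage, 0.568 for adipocyte, 0.523 for activated fibroblast, 0.521 for tenocyte, 0.517 for endothelial, 0.446 for mural and 0.309 for satellite cell genes. It was lower for some genes related to FAPs, with 0.35 for the secreted and transcription factors and 0.0676 for the PDGF genes, and near 0 for Schwann cell (-0.0129) and muscle fibre genes (-0.0583). Within the lists single genes departed, such as Tcf7l2 (-0.61), Ltbp3 (-0.504) and Pdgfa (-0.461). These values are descriptions over the 20 mice and were not tested.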

How the data were processed

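RNA of the gastrocnemius was sequenced on a NextSeq 500 after rRNA depletion, in 20 mice. Per the labels and the study's methods the authors aligned reads with STAR 2.6.1c (two-pass mode, GRCm38.p6), summarised them per gene with GENCODE M25 and deposited raw counts, with no normalization. The counting tool is not given in the sources used here. Treatment, sex, batch and replicate came from the labels, and age and treatment length from the study's methods. Positions and exon lengths came from GENCODE M21 (also GRCm38), an older release.

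Counts were scaled by TMM, filtered with filterByExpr (minimum count 10, minimum total 15) and tested in edgeR 4.0.16 (R 4.3.3) by the quasi-likelihood test with treatment, sex and batch in 1 model, adjusted by Benjamini-Hochberg over all 12923 genes at a threshold of 0.05. Interactions were added one at a time. Log2 CPM used a prior count of 2. Summaries and permutation tests used Python 3.11.15 with numpy 2.4.6. Mice of the same treatment, sex and batch differed beyond sampling noise (chi-square over its degrees of freedom 8.06 to 49.6 in 16 pairs), so each mouse was 1 replicate. Depth, 13900180 to 30469644 counts per mouse, limits Dpp4 most. The scripts were tested on simulated data. The 10 genes and the gene lists were chosen with earlier results of these data known. The genes named are the 10, the most alike 10 by median r, and of each list the gene with the lowest p in the HK and the sex comparison. One gene named by this rule is not reported here. The genes Tcf7l2, Ltbp3, Pdgfa (in its correlation), Il33, Sema3c, Igf1, Hsd11b1, Efemp2, Ltbp1, Tnnt3, Ckm and those named by lowest p between batches were chosen after their values were seen. Alternatives were other scalings, filters, tests and covariates, a replicate block, single batches, sexes and groups, and each mouse left out. A filter of 2 counts in total and the batch comparison within groups or sexes or by library size alone were added after seeing the data. Young mice were not analysed here.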

Additional observations from a re-analysis of the deposited data

Results flagged for a closer look

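Mfap5 in untreated male replicate 3, at 44.9 CPM, stood apart from the other untreated mice and from the other males, the next highest of both being at 24.6 CPM. The gap was 0.498 of the range of the 10 untreated mice and 0.484 of that of the 10 males, above Dixon's 95% critical value for that number of mice. Of 50 sets of mice examined (5 for each of the 10 FAP genes) 2 stood out in this way, both through this 1 mouse. The 5 were the HK-treated, untreated, male, female and batch 1 mice. Chance gives about 1 in 20 for a single set, but the sets share mice and the genes vary together. Batch 2, which holds this mouse, was not examined as a set, and the sets of 10 mice mix the batches. The same mouse was the highest of all 20 in Lum, Pi16, Cd34 and Ly6a as well. Without it the log2 fold change of Mfap5 was -0.30 with HK, 0.10 between sexes and 1.28 between batches (adjusted p = 0.997, 0.794 and 0.00039 in edgeR).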

How the results depend on the processing

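With HK, none of the 10 FAP genes was called in 32 of 33 alternatives. The exception kept every gene with a count (30096 genes), where edgeR fitted infinite prior degrees of freedom, and so gave every gene the dispersion of the trend, and called 502 genes and 4 FAP genes (Dpt, Mfap5, Pi16 and Cd34, all lower). With at least 2 counts in total (26580 genes) the prior degrees of freedom were 8.62, against 4.18 as reported, and 0 genes were called. DESeq2 called 7 genes, none of the 10. With no filter 3 FAP genes were called between sexes, where 2784 of all 30096 genes were. In the interaction with sex 1 FAP gene and 314 of all genes were called, and in that with batch 0 and 225. The count of genes called between sexes moved from 2174 to 1266 in batch 1 alone, 843 in batch 2 alone, 452 in untreated and 630 in HK-treated mice alone, which hold fewer mice. With the replicate block the median log2 fold change of the FAP genes with HK was -0.25, 3 had an unadjusted p under 0.05 and none was called. Of 10 same-numbered pairs 4 had a correlation of deviations over 0.1 (-0.472 to 0.21). Deviations were taken from the mean of each treatment, sex and batch. The batch 1 pairs of a sex therefore share 1 value by construction (0.21 in females, -0.472 in males). The check cannot decide whether the numbers pair the mice, and the main model did not pair them.

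Signs with HK reversed for Ly6a in batch 1 alone (0.0088), for Dcn and Gsn in batch 2 alone (0.0754, 0.10) and in males alone (0.10, 0.21), and with single mice left out (Dcn -0.16 to 0.0132, Gsn -0.18 to 0.0341, genes called 0 to 1). Signs between sexes reversed for Dpt with limma voom (0.053), without covariates (0.0701), in batch 2 (0.24) and in HK-treated mice (0.0892), for Gsn in batch 1 (-0.00798) and untreated mice (-0.21), for Mfap5 (-0.47) and Dpp4 (0.017) in batch 1, for Pdgfra (0.0116), Lum (0.20), Cd34 (0.0155) and Ly6a (0.0079) in batch 2, and for Pdgfra in HK-treated mice (0.15). With single mice left out they ran from -0.18 to 0.0179 for Pdgfra, -0.16 to 0.10 for Dpt and -0.0393 to 0.17 for Gsn. The cause was not tested.

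Between batches, 5 FAP genes were called in males alone, 3 in females, 4 in untreated and 2 in HK-treated mice, with fewer mice in each fit, and the 4720 genes called became 3302, 1359, 1928 and 1307. It was 7 to 10 FAP genes with single mice left out. Median r was 0.932 with means refitted in batch 1 alone and 0.732 to 0.824 with single mice left out. All 10 calls between batches were kept with DESeq2 size factors, library size alone, no filter, at least 2 counts in total and the DESeq2 test. Other covariates and limma voom were not run for this comparison.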

Other observations

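Sums over marker lists place the FAP genes in the make-up of these libraries. The 10 FAP genes summed to 311 to 1580 CPM in HK-treated and 521 to 1288 CPM in untreated mice, and the 9 collagens to 95.2 to 816 and 136 to 1772 CPM. Tenocyte genes summed to 34.8 to 140 CPM in males and 13.4 to 41.7 CPM in females, while the 10 FAP genes did not separate the sexes (361 to 1580 and 311 to 1222 CPM). Adipocyte genes summed to 75.4 to 196 CPM in males and 99.9 to 327 CPM in females.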
